A study of Xenopus laevis with 4 samples.

Results

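The stretches of 100 kb that held the most MBD-seq peaks of methylated DNA in Xenopus laevis embryos before zygotic genome activation (ZGA) are described here as peak-rich windows. They were chosen by the peaks themselves. Each of the 18 chromosomes was divided into windows of 100 kb from its first base, peak midpoints were counted in each replicate, and a window was kept where it had at least 8 midpoints in replicate 1 and at least 14 in replicate 2. This rule was met by 1122 of 27402 full windows (4.09%), leaving 26280 other windows. The numbers of peaks in them are therefore given as a description, with no test. Only measures that the rule did not use, which come from the gene annotation and from chromosome position, were tested.

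The study profiled DNA methylation by MBD-seq. Genomic DNA is fragmented, pieces with methylated CpGs are pulled out by the MethylCap protein, a fusion of an MBD (methyl-CpG-binding domain) with H6 and GST tags, and these pieces are sequenced. The 2 MBD capture libraries came from wild-type (WT) whole embryos at the 256-cell stage, 4.5 h after fertilization, with 250 embryos pooled in each replicate. The 2 Input libraries, genomic DNA of the same stage and genotype before capture, entered only through the authors' peak calling. No treatment was applied to the embryos, so both captured libraries belong to a single group, and no comparison between conditions is possible. Since whole embryos were pooled, a region methylated in all cells and a region methylated in some of them cannot be told apart.

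In vertebrates, DNA methylation is found mainly on cytosines that precede a guanine (CpG), and most CpGs outside active promoters and CpG islands carry it. An MBD protein binds such CpGs, and it enriches a fragment more when several methylated CpGs lie close together. A window rich in peaks is thus a window with many separate stretches of captured DNA, and a window poor in peaks need not be unmethylated. Xenopus laevis is an allotetraploid frog that carries an L and an S subgenome, derived from different ancestral species, so each chromosome has a homeologous partner and many genes are kept as an L and an S copy. Sequences of single peaks are not printed, because no genome sequence was used here.

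The libraries differed in depth, with 17645240 tags and 131303 peaks in replicate 1 and 23909019 tags and 222771 peaks in replicate 2. The rule asked for more midpoints in replicate 2, and that limit was the stricter one. The threshold of replicate 1 alone was met by 3898 windows (14.2%) and that of replicate 2 alone by 1856 (6.77%). Of these, 28.8% and 60.5% also met the threshold of the other replicate. Many windows lay close to the limits. There were 317 peak-rich windows with exactly 8 midpoints in replicate 1 and 350 with exactly 14 in replicate 2, while 257 windows missed the rule by a single midpoint in replicate 1 and 374 by a single midpoint in replicate 2. The rule thus takes the upper end of a continuous range, as the plot of counts in both replicates shows.

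**Figure D1:**
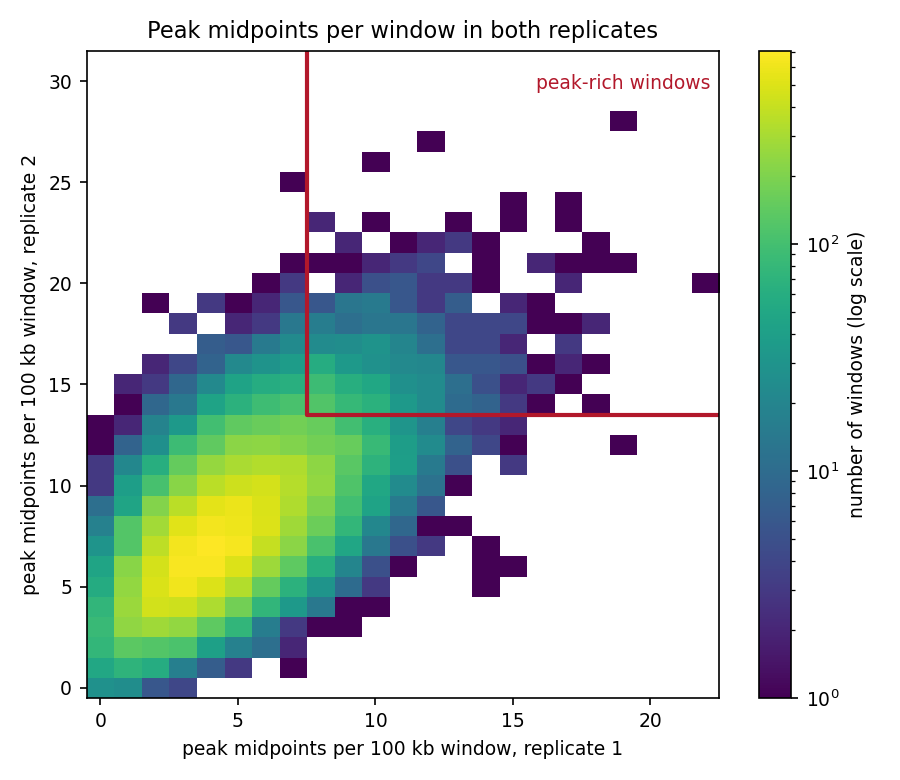
Number of full 100 kb windows (colour, log scale) by the count of peak midpoints in replicate 1 (horizontal axis) and replicate 2 (vertical axis). The red lines enclose the 1122 peak-rich windows, with at least 8 midpoints in replicate 1 and at least 14 in replicate 2, and no gap separates them from the 26280 other windows.

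Peak-rich windows had 10.05 ± 2.12 midpoints in replicate 1 and 15.8 ± 2.00 in replicate 2 (SD, n = 1122 windows). Other windows had 4.57 ± 2.30 and 7.80 ± 3.03 (SD, n = 26280). The highest counts were 22 in replicate 1 and 28 in replicate 2. With 4.09% of the windows, the peak-rich ones held 8.59% of the midpoints of replicate 1 and 7.97% of those of replicate 2. Peaks covered on average 6.72 kb and 11.5 kb of a peak-rich window, against 2.82 kb and 5.22 kb of another window. Even in most peak-rich windows the larger part of the sequence therefore lay outside peaks.

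Next, the peaks themselves were described. The median peak width was 501 bp in peak-rich and in other windows of both replicates, the width of a single region tested in the peak calling. Mean width was 669.1 bp in replicate 1 and 726.3 bp in replicate 2 in peak-rich windows, against 617.2 and 669.7 bp in other windows. Peaks of at least 3 kb made up 0.488% of the peaks of replicate 1 and 0.603% of those of replicate 2 in peak-rich windows, against 0.106% and 0.348% in other windows. Neighbouring peaks of one window were a median of 6473 bp apart in replicate 1 and 4344 bp apart in replicate 2 in peak-rich windows, against 11035 and 7454 bp in other windows. In replicate 1, 70.4% of the peaks in peak-rich windows overlapped a peak of replicate 2, against 61.0% in other windows. In replicate 2, these shares were 44.4% in peak-rich windows and 35.5% in other windows. A peak-rich window held on average 7.07 replicate 1 peaks that recurred in replicate 2, with a range from 2 to 16. These values come from the counts that chose the windows, and a denser list also gives more overlap, so they carry no test.

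Peak-rich windows lay on both subgenomes, and more often on S chromosomes. On S, 654 of 12507 windows (5.23%) were peak-rich, against 468 of 14895 (3.14%) on L. S chromosomes thus held 58.3% of the peak-rich windows and 45.6% of all windows. Averaged over chromosomes, the share was 5.48% ± 2.00 on S and 3.18% ± 0.663 on L (SD, n = 9 chromosomes each). The S chromosome had the higher share in 9 of 9 homeologous pairs, by 2.30 ± 2.00 percentage points (SD over pairs). That S chromosomes carry more peaks per Mb was known from these same lists, so this is a description and was not tested.

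Pair 8 stood apart. On 8S, 102 of 1039 windows (9.82%) were peak-rich, against 35 of 1354 (2.59%) on 8L, a ratio of 3.798. The other 8 pairs had ratios from 1.26 for pair 9_10 to 1.91 for pair 3. Without pair 8 the mean difference between S and L was 1.68 percentage points. Chromosome 7S came second with 83 of 1130 windows (7.35%), against 58 of 1398 (4.15%) on 7L. The lowest share of any chromosome was 2.35% on 1L, with 55 of 2337 windows, against 3.61% on 1S.

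**Figure D2:**
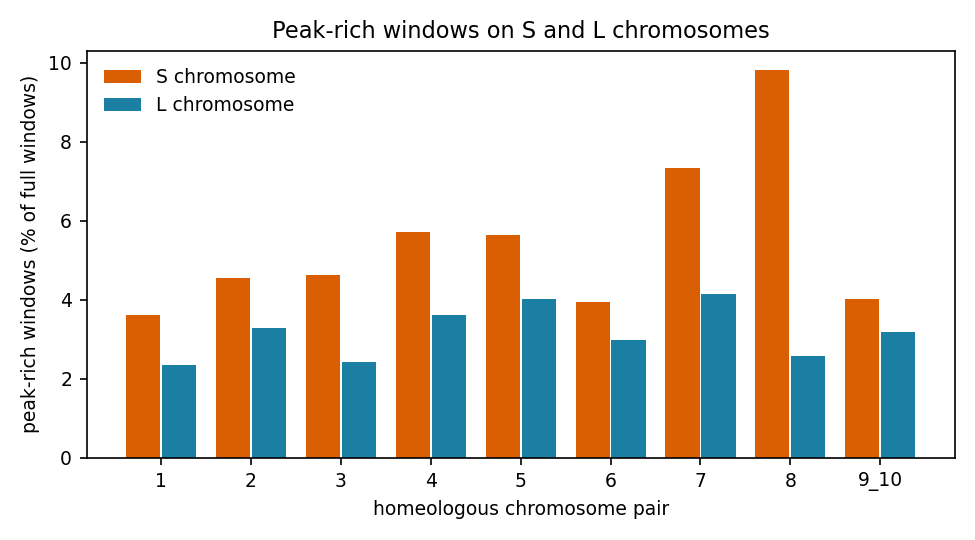
Peak-rich windows as a percentage of the full 100 kb windows of each chromosome, for the S (left bar) and L (right bar) member of the 9 homeologous pairs. The S bar is the higher one in all 9 pairs, and pair 8 has the widest gap, with 9.82% on 8S and 2.59% on 8L.

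Along the chromosomes, peak-rich windows lay closer to the ends than other windows did. Averaged over chromosomes, the mean distance from the nearer end was 25.5 Mb for peak-rich windows and 38.6 Mb for other windows. The difference was -13.1 ± 5.03 Mb (SD over 18 chromosomes). Peak-rich windows were the closer ones on 18 of 18 chromosomes (exact paired sign-flip permutation test over chromosomes, two-sided, p = 7.63e-06, which is the lowest value that 18 chromosomes can give; Benjamini-Hochberg adjusted p = 5.34e-05 over 7 tests). This test treats the 18 chromosomes as independent, although they form 9 homeologous pairs. The medians over single windows were 20.01 Mb for peak-rich and 39.1 Mb for other windows. Of the peak-rich windows, 561 (50%) lay within 20 Mb of an end, which holds 26.2% of all windows. The far end was taken as the end of the last peak or gene, whichever came later, so distances are those within the annotated sequence.

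The last bases of the chromosomes were an exception. Within 2 Mb of an end lay 4 peak-rich windows (0.357% of them), against 2.59% of all windows. The share of windows that were peak-rich was 0.286% in the first Mb, 0.833% between 1 and 2 Mb and 3.796% between 2 and 5 Mb. It was 9.39% between 5 and 10 Mb, 10.6% between 10 and 15 Mb and 8.72% between 15 and 20 Mb. Further inside it was 6.69% between 20 and 30 Mb and 3.31% between 30 and 40 Mb, and from 40 Mb onwards each band was between 1.52% and 1.61%. The peak-rich windows thus formed a broad belt below the chromosome ends and thinned out towards the middle. Both the first and the last 20 Mb had a higher share than the middle of the chromosome on 16 of 18 chromosomes. The exceptions were 6S, with 3.02% in its last 20 Mb and 3.08% in its middle, and 8L, with 1.01% and 1.78%.

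The subgenomes differed in this belt. Between 5 and 15 Mb from an end, 13.7% of S windows were peak-rich (247 of 1800), against 6.22% of L windows (112 of 1800). Between 20 and 40 Mb the shares were 4.83% on S and 5.17% on L. Beyond 40 Mb they were 2.11% on S and 1.16% on L. The S belt was also closer to the end, with its highest band at 10 to 15 Mb (14.1%), whereas the highest band on L was at 15 to 20 Mb (7.67%). S chromosomes are shorter than their L partners, and distances were not scaled by chromosome length.

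**Figure D3:**
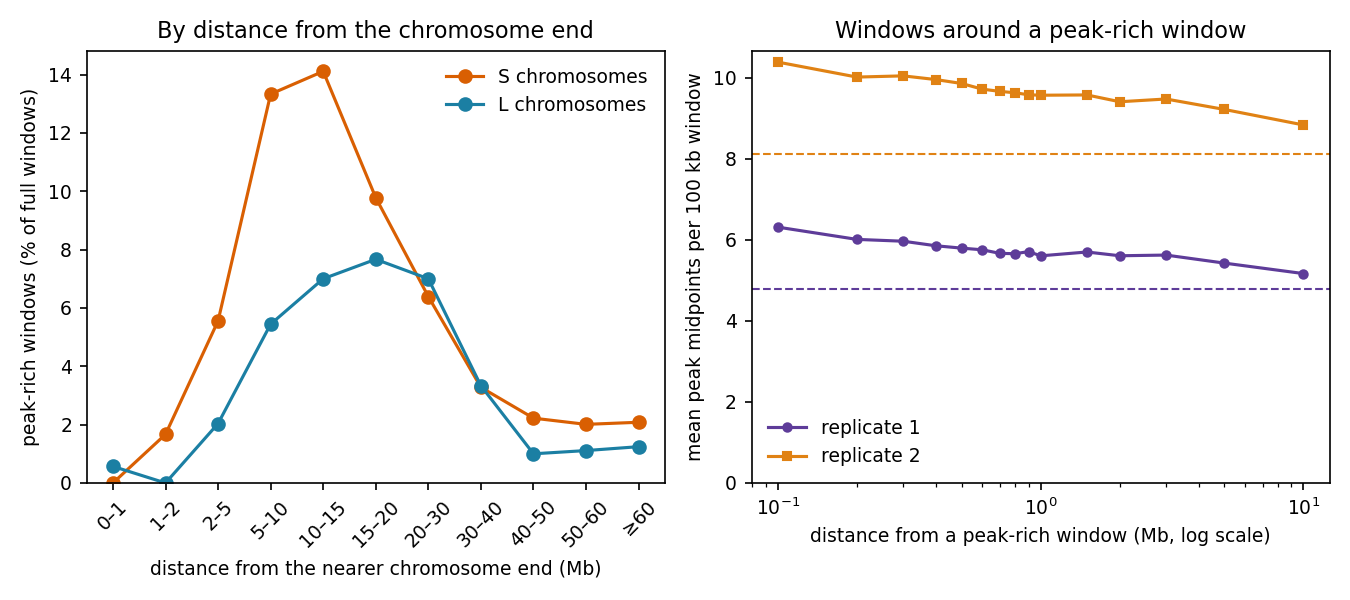
Left, peak-rich windows as a percentage of all full windows by distance from the nearer chromosome end in Mb, for S and L chromosomes. Right, mean number of peak midpoints in windows at a given distance (Mb, log scale) on either side of a peak-rich window, for each replicate, with dashed lines at the mean of all windows (4.79 and 8.13); S reaches 14.1% at 10 to 15 Mb, and counts next to a peak-rich window are 6.32 and 10.4.

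Peak-rich windows were also found near each other. They formed 963 runs of adjacent windows, of which 849 were single windows and 114 held 2 windows or more. In these 114 runs lay 273 windows, which is 24.3% of all peak-rich windows. A neighbour directly beside it was itself peak-rich for 24.3% of peak-rich windows and for 6.98% of other windows. Within 10 windows, which is 1 Mb, another peak-rich window was found for 74.7% of peak-rich windows and for 41.1% of other windows. The surroundings were raised over a longer range. Windows at 100 kb from a peak-rich window had a mean of 6.32 midpoints in replicate 1 and 10.4 in replicate 2, windows at 1 Mb had 5.61 and 9.57, and windows at 10 Mb had 5.17 and 8.84, against 4.79 and 8.13 over all windows. Nearby windows share their position relative to the chromosome end, and its part in the clustering was not tested. Among windows at 100 kb from a peak-rich window, 14.2% were themselves peak-rich, and among those at 1 Mb 8.47% were.

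The densest stretch of 5 Mb was on 8S, from 6000001 to 11000000, where 25 of 50 windows (50%) were peak-rich. On 4S, 20 of 50 windows were peak-rich between 5000001 and 10000000, on 3S 19 of 50 between 8000001 and 13000000, and on 7S 16 of 50 between 6000001 and 11000000. On the L chromosomes the densest stretch was on 8L, between 12000001 and 17000000, with 11 of 50 windows. All of these stretches lay in the belt near an end. Coordinates here are 1-based and refer to version 10.1 of the Xenopus laevis genome.

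The longest runs of peak-rich windows had 5 windows, and there were 4 of them. The first lay on 8S from 7100001 to 7600000, with 48 midpoints in replicate 1 and 84 in replicate 2. It held dact1.S, whose product (Dapper) binds the Wnt pathway protein Dishevelled, daam1.S, a formin of non-canonical Wnt signalling, jkamp.S, rtn1.S, LOC733305 and LOC108700472. The peaks were not confined to the space between these genes. No peak lay on dact1.S, and the nearest were 2558 bp and 2440 bp away, whereas daam1.S, which is 123310 bp long, carried 10 peaks in replicate 1 and 19 in replicate 2. The second run on 8S, from 9800001 to 10300000, had 55 and 88 midpoints and held akt1.S, a serine/threonine kinase of growth factor signalling, with cep170b.S, znf238.2.S, siva1.S, adss1.S, inf2.S and tmem179.S. On akt1.S lay 10 peaks in replicate 1 and 15 in replicate 2.

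The other 2 runs of 5 windows lay on 4S. From 6900001 to 7400000 there were 57 and 90 midpoints, beside 12 genes that include cd81.S, a tetraspanin, and th.S, the tyrosine hydroxylase of catecholamine synthesis. From 8100001 to 8600000 there were 58 and 93 midpoints and 5 genes, among them lgr4.S, a receptor for R-spondins that enhance Wnt signalling. On lgr4.S (91535 bp) lay 11 peaks in replicate 1 and 23 in replicate 2. A run of 4 windows on 7S, from 6300001 to 6700000, held a single gene, dkk1.S, a secreted Wnt antagonist. No peak lay on dkk1.S itself, with the nearest at 18691 bp in replicate 1 and 3366 bp in replicate 2. Its homeolog dkk1.L carried 1 peak in each replicate and lay in a window that was not peak-rich, with 6 and 8 midpoints. Peak-rich windows of these runs thus held genes and gene-free sequence side by side.

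To describe the extremes, the 10 windows with the highest sum of midpoints over both replicates were examined. They had 12 to 22 midpoints in replicate 1 (median 17.5) and 20 to 28 in replicate 2 (median 22.5). Of these 10 windows, 7 held no gene midpoint. At the top was a window of 5S, 91200001 to 91300000, with 19 midpoints in replicate 1 and 28 in replicate 2. Peaks covered 13.96% of it in replicate 1 and 34.5% in replicate 2, and its single overlapping gene was mb21d2.S, which reaches into its last bases. Of its 19 replicate 1 peaks, 16 recurred in replicate 2.

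Among the first 5 windows, 3 lay close together on 5S, at 54800001 to 54900000 (22 and 20 midpoints), 54900001 to 55000000 (17 and 24) and 54500001 to 54600000 (18 and 22). The surrounding 800 kb, from 54500001 to 55300000, held no gene midpoint. Its 8 windows had 18, 14, 10, 22, 17, 18, 13 and 10 midpoints in replicate 1 and 22, 14, 11, 20, 24, 18, 12 and 13 in replicate 2, and 5 of them were peak-rich. Just outside, the windows on either side had 6 and 8 midpoints (left) and 5 and 10 (right). In the 5 peak-rich windows of the stretch, peaks covered 31.5% to 48.8% of the sequence in replicate 1 and 18.3% to 30.6% in replicate 2. Each was covered more in replicate 1. In the window with 22 midpoints, peaks covered 48.8% of the sequence in replicate 1 and 30.6% in replicate 2.

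Such wide coverage was rare. In 8 peak-rich windows (0.713%) peaks covered at least 20% of the sequence in both replicates, against 5 other windows (0.0190%). None of these 8 held a gene midpoint. This limit and these windows were chosen after the values were seen. Of the 8 windows, 4 belong to the 5S stretch above, and 3 lay in a second stretch of 5S, between 69200001 and 69600000, with coverage from 28.3% to 44.7% in replicate 1 and from 23.0% to 26.3% in replicate 2. The last one, on 3S from 11300001 to 11400000, had only 9 and 17 midpoints, yet peaks covered 69.2% of it in replicate 1 and 63.4% in replicate 2. It shows that the number of peaks and the length they cover are different measures. Replicate 1 covered more sequence than replicate 2 in 20 peak-rich windows (1.78%) and in 1935 other windows (7.36%). Repeat content was not analysed here.

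A window of 8S, 3300001 to 3400000, had 19 and 21 midpoints and no gene, and the nearest protein-coding gene was foxa1.S, 53634 bp away, which encodes a forkhead transcription factor of the endoderm. The gene itself lay in a separate peak-rich window with 10 and 20 midpoints, and no peak overlapped it. On 7L, 92400001 to 92500000 had 17 and 23 midpoints, 48729 bp from pank4.L. On 9_10L, 87600001 to 87700000 had 12 and 27 midpoints, 93104 bp from c3orf70.L. A window of 3S, 22300001 to 22400000, had 18 and 21 midpoints and held LOC108712281 and ap3m2.S, a subunit of the AP-3 adaptor complex. Neither replicate had a peak on ap3m2.S, but the nearest lay 300 bp and 237 bp away. A window of 2S, 13100001 to 13200000, had 17 and 21 midpoints and held LOC108709205, with 5 and 8 peaks on it, and the lncRNA gene LOC121400398, with 2 and 2.

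The remaining window of the 10 held a gene cluster of early development. The ventx genes encode homeodomain transcription factors that act downstream of BMP signalling and specify ventral fates in the Xenopus embryo. On 7L, 21700001 to 21800000, the window had 15 midpoints in replicate 1 and 24 in replicate 2, and 4 genes lay in it in the order ventx3.2.L, ventx1.2.L, ventx2.2.L and ventx1.1.L. The windows beside it had 8 and 11 midpoints on one side and 9 and 12 on the other, and the second of these, which was not peak-rich, held a further gene, ventx2.1.L. The cluster on 7L thus crosses a window border. Of the 15 replicate 1 peaks in the window, 1 lay on a gene, 5 between the genes, 6 before the first gene and 3 after the last. Of the 24 replicate 2 peaks, 2 lay on a gene, 13 between the genes, 6 before the first and 3 after the last. The gene ventx1.2.L (21748635 to 21753346) carried 1 peak in each replicate, but these did not overlap each other. No peak lay on ventx3.2.L (21731065 to 21734295), where the nearest were 539 bp and 502 bp away, or on ventx2.2.L (21777297 to 21779193), where they were 2185 bp and 420 bp away. The gene ventx1.1.L (21788605 to 21791493) carried 1 peak in replicate 2 and none in replicate 1, whose nearest peak was 694 bp away. Of the 15 replicate 1 peaks of the window, 10 recurred in replicate 2.

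The S copies of these 4 genes were not in peak-rich windows. On 7S, ventx3.2.S and ventx1.2.S lay in a window with 8 and 13 midpoints, a single midpoint short of the rule in replicate 2, and ventx2.2.S and ventx1.1.S lay in a window with 5 and 10. The cluster on 7S also fell across a window border, so these counts depend on where the windows start. The gene ventx1.2.S carried 1 peak in replicate 2, with the nearest replicate 1 peak at 3934 bp. The nearest peaks of ventx3.2.S were 1257 bp and 333 bp away, those of ventx2.2.S 29034 bp and 15279 bp, and those of ventx1.1.S 30607 bp and 2528 bp.

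**Figure D4:**
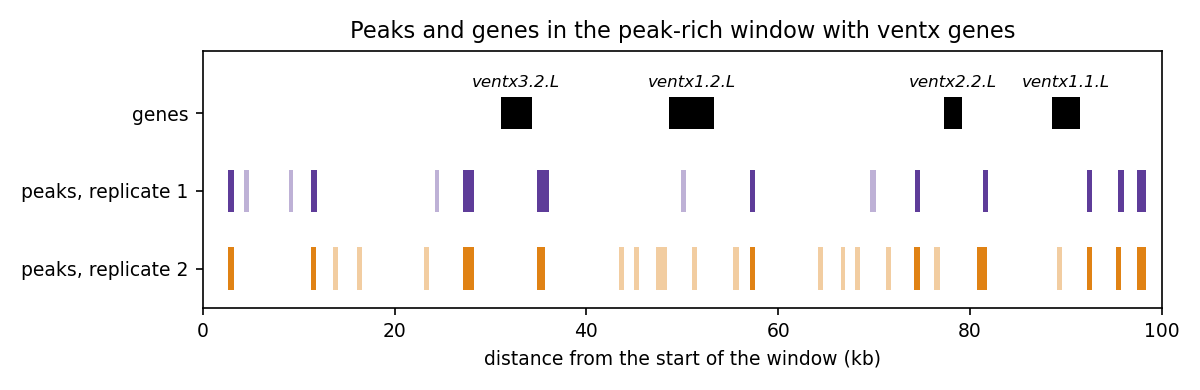
Peaks of replicate 1 and replicate 2 and the 4 ventx genes in a peak-rich window of chromosome 7L, by distance from the start of the window in kb; dark bars are peaks that overlap a peak of the other replicate and pale bars are peaks that do not. Peaks stand between and beside the genes, and 10 of the 15 replicate 1 peaks are dark.

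The gene content of peak-rich windows was compared with that of the other windows of the same chromosome. Protein-coding genes were sparser. Averaged over chromosomes, a peak-rich window held 0.974 protein-coding genes and another window 1.29, a difference of -0.316 ± 0.213 genes (SD, 18 chromosomes). The number was lower in peak-rich windows on 17 of 18 chromosomes (exact paired sign-flip permutation test, two-sided, p = 2.29e-05; adjusted p = 7.12e-05 over 7 tests). The exception was 4S, with 1.24 genes per peak-rich window and 1.17 per other window. The difference was widest on 8L, with 0.971 and 1.79. Averaged in the same way, protein-coding genes took up 38.4% of the bases of peak-rich windows and 46.6% of those of other windows. The difference was -8.18 ± 5.24 percentage points (17 of 18 chromosomes, the same exact test, p = 3.05e-05, adjusted p = 7.12e-05). With only the first 78.3% and 79.2% of the peaks in listing order, the difference in gene number was -0.259 and no longer passed the threshold (the same exact test, adjusted p = 0.0836). This cut left 295 peak-rich windows. It took the order of the peaks as a ranking, which the lists do not state. Gene number and share of bases overlap as measures and are not independent results.

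**Figure D5:**
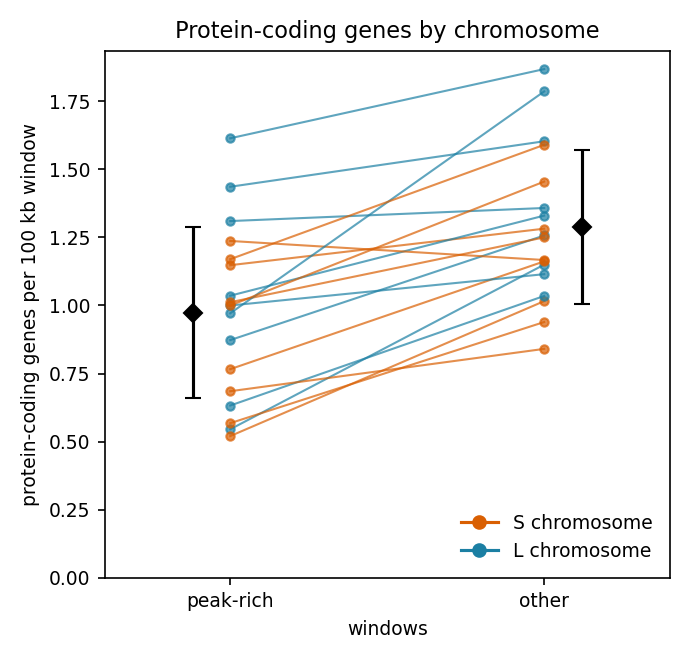
Mean number of protein-coding genes per 100 kb window in peak-rich windows (left) and in the other windows (right) of each of 18 chromosomes; lines join the values of one chromosome and black diamonds give the mean ± SD over chromosomes. The peak-rich value is the lower one on 17 of 18 chromosomes, with means of 0.974 and 1.29.

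Of the peak-rich windows, 448 (39.9%) held no gene midpoint of any class, against 31.4% of other windows, and 278 (24.8%) had no base in an annotated gene, against 16.0%. At the other extreme, 19 (1.69%) held 5 protein-coding genes or more, against 3.26% of other windows. Gene density itself changes along the chromosome. Because windows near the ends hold more genes, the comparison was repeated by distance. Between 2 and 10 Mb from an end, peak-rich windows had 1.31 protein-coding genes and other windows 1.87. Between 10 and 20 Mb these values were 0.839 and 1.26, between 20 and 40 Mb 0.983 and 1.22, and beyond 40 Mb 0.657 and 1.099. Within each of these bands the peak-rich windows were thus the gene-poorer ones. The exception was the last 2 Mb, where the 4 peak-rich windows had 3.5 protein-coding genes and other windows 2.66.

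The place of peaks inside and outside genes was also described. In peak-rich windows, 62.6% of replicate 1 peaks and 62.4% of replicate 2 peaks lay in intergenic sequence by midpoint, against 56.0% and 55.5% in other windows. Peak-rich windows had 69.78 Mb outside protein-coding genes and 42.42 Mb inside, and other windows 1402 Mb and 1226 Mb. Since peak-rich windows thus have a larger share of sequence outside genes, the density per Mb was also computed. In peak-rich windows there were 94.9 peaks per Mb inside protein-coding genes and 103.8 outside in replicate 1, and 150.2 and 162.9 in replicate 2. In other windows these densities were 40.9 and 49.8 in replicate 1, and 70.5 and 84.5 in replicate 2. A high number of peaks was thus found inside genes as well as between them. In proportion to the density, the gap between outside and inside was smaller in peak-rich windows.

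Gene ends were counted next. Peaks in peak-rich windows had their midpoint near an end of a protein-coding gene (1 kb or less) in 2.72% of cases in replicate 1 and 2.81% in replicate 2, and peaks in other windows in 3.47% and 3.64%. Counted over all windows of a set, peak-rich windows also held fewer protein-coding genes, 0.949 per window against 1.27, and so fewer ends. The shares were not adjusted for this, so they do not show that peaks avoid gene ends. Of 1065 protein-coding genes in peak-rich windows, 284 (26.7%) had a peak in both replicates within 1 kb of at least one end, against 3604 of 33376 other genes (10.8%) and 11.3% of all. At both ends this was so for 20 genes (1.88%), against 161 (0.482%). Strand was not known, so the end that carries the promoter cannot be told from the other. These counts use the peaks that chose the windows and were not tested.

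Gene classes were next counted by gene midpoint. Of 34441 protein-coding genes in full windows, 1065 (3.09%) lay in a peak-rich window, and of 3909 lncRNA genes 138 (3.53%) did, both below the 4.09% of windows. For snoRNA genes it was 21 of 579 (3.63%) and for snRNA genes 19 of 377 (5.04%). Pseudogenes reached 126 of 1794 (7.02%), rRNA genes 51 of 343 (14.9%) and tRNA genes 591 of 2612 (22.6%). None of the 211 immunoglobulin or T cell receptor V segments of the annotation lay in a peak-rich window. The windows that hold these segments were not counted, and their absence was not tested. Of the 126 pseudogenes, 46 lay in a single window of 9_10L, and without it the share was 4.58%. Pseudogenes and genes of the small RNA classes can lie in arrays, so many genes of one class can share a window, and these shares rest on few windows.

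In the test over chromosomes, neither lncRNA genes, pseudogenes, tRNA genes nor the share of LOC symbols passed the threshold. The means and shares that follow are averages over chromosomes. Peak-rich windows held 0.133 lncRNA genes and other windows 0.148 (exact permutation test, two-sided, adjusted p = 0.387). Pseudogenes were at 0.134 in peak-rich and 0.0653 in other windows (the same exact test, adjusted p = 0.387), with the largest value, 1.21 per peak-rich window, on 9_10L. Of the protein-coding genes, 37.0% in peak-rich and 34.7% in other windows had only a LOC symbol, which marks genes without an assigned name (the same exact test, adjusted p = 0.387). For tRNA genes the means were 0.580 and 0.0782, a difference of 0.502 ± 1.08 genes (SD), and the peak-rich value was higher on 6 of 18 chromosomes and lower on 12 (exact permutation test, p = 0.0560; adjusted p = 0.0980). With windows started at base 50000 the tRNA difference was 0.541 genes (exact permutation test, adjusted p = 0.0493), and with replicate 1 alone the LOC share was 4.86 percentage points higher in peak-rich windows (the same exact test, adjusted p = 0.0309).

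The high share of tRNA genes came from a few arrays. Transfer RNA genes are short genes read by RNA polymerase III, and in Xenopus many of them lie in tandem arrays. Of the 591 tRNA genes in peak-rich windows, 576 lay in 12 windows that held 10 or more each. Over the genome 70 windows held 10 or more tRNA genes, and these 12 are 17.1% of them. Among the 20 windows with 40 or more tRNA genes, 8 were peak-rich. Of all full windows, 4.09% were peak-rich. The limits of 10 and 40 tRNA genes were not planned. Some of these array windows lie next to each other on 3S, so they are not independent, and these counts were not tested. The 12 peak-rich array windows had medians of 10.5 and 15 midpoints. In the other 58 array windows the medians were 5 and 8, and counts went down to 0 in replicate 2. The rule itself separates these sets by their midpoints, so this difference was fixed in advance and carries no test. Without the windows of 10 or more tRNA genes, the difference per window was -0.00295 genes, so the 12 array windows carried the mean difference.

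The richest array window lay on 3S, from 120400001 to 120500000, with 123 tRNA genes in 72.3 kb at a median spacing of 445 bp. The most frequent kinds were those for methionine with anticodon CAU (30 genes) and alanine with anticodon UGC (17 genes). The window had 10 midpoints in replicate 1 and 26 in replicate 2, and a peak overlapped 9 of the 123 genes in replicate 1 and 94 in replicate 2. Nearby windows of 3S, from 120500001 and from 120700001, held 55 and 38 more tRNA genes, and all 3 were peak-rich. The second window, on 1L from 4700001 to 4800000, held 65 tRNA genes, of which 10 had a peak in replicate 1 and 42 in replicate 2. Over the 12 windows a peak overlapped 93 tRNA genes in replicate 1 and 360 in replicate 2. The replicates thus differed on the tRNA genes, while the rule itself set a floor for the midpoints of these windows. They also differed in the length that peaks covered, with 6.11 kb in replicate 1 and 43.0 kb in replicate 2 of the richest window. Whether the tRNA genes differed beyond this length was not tested. An exception was a window of 3S, 58200001 to 58300000, with 44 tRNA genes of 2 kinds, aspartate and isoleucine. Of these genes 11 and 13 had a peak, at 18 midpoints in each replicate and with 15.45 kb and 15.32 kb covered.

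By the amino acid that the tRNA carries, the share of genes in peak-rich windows was highest for methionine (49 of 94 genes), glutamine (64 of 129) and phenylalanine (29 of 61). It was lowest for tryptophan (0 of 49), threonine (2 of 215) and cysteine (1 of 45). Over all tRNA genes it was 22.6%. Of the 49 methionine genes, 30 lay in a single window of 3S and 11 in the window beside it. Shares by amino acid thus rest on few arrays. Copies of an array are near-identical in sequence, so reads can be placed on the wrong copy. How multiply mapping reads were treated is not given in the sources used here, and single tRNA genes are therefore uncertain.

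The rRNA genes in peak-rich windows also came from an array. Of the 51 in peak-rich windows, 50 lay in a single window of 9_10L, from 23700001 to 23800000, together with 46 annotated pseudogenes. The rRNA genes were each 119 bp long and had a median spacing of 704 bp over 77.2 kb. This window had 16 midpoints in replicate 1 and 15 in replicate 2, yet a peak overlapped 2 of its 50 rRNA genes in each replicate. Among the pseudogenes it was 6 and 7. The 19 snRNA genes lay in 4 windows, and 14 of them, including rnu2, the U2 spliceosomal RNA, shared a window of 8L from 111600001 to 111700000 with 10 and 15 midpoints. No peak overlapped any of these 14 genes. Peaks covered 10.98 kb and 10.68 kb of the 9_10L window and 6.81 kb and 16.6 kb of the 8L window. The larger part of either window thus lay outside peaks, and so did most genes of these arrays. Whether the genes carried fewer peaks than this coverage gives was not tested. The uncertainty of read placement described for tRNA arrays holds for these arrays too.

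Gene families were then counted by symbol, and each count was read against the 3.09% of all protein-coding genes. A family member with only a LOC symbol could not be counted, whereas the 3.09% includes such genes. Of 81 forkhead genes, which encode transcription factors of the fox family, 5 lay in peak-rich windows (6.17%), namely foxi4.1.S, foxi4.2.S, foxp1.L, foxp1.S and foxa1.S. The first pair of them share a window of 1S with 9 and 17 midpoints, in which foxi4.1.S carried 1 peak in replicate 2 and foxi4.2.S none. Histone genes were at 3 of 29, with h2az2.S, h1-6.L and h4c4.L, which the annotation lists on 3S. Genes of the germline and meiosis were at 3 of 34. These were nanos1.L, a repressor of translation in germ cells, spo11.S, which makes the double-strand breaks of meiosis, and meiob.L, a meiotic DNA-binding protein. Of these 3 genes, meiob.L carried 4 and 5 peaks, whereas nanos1.L and spo11.S carried none.

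Other families were close to or below that share. Zinc finger znf genes were at 8 of 191 (4.19%), 3 of them in a window of 6L with 8 and 16 midpoints (znf208.L, znf665l.L and znf250.L). Potassium channel genes were at 5 of 120 (4.17%), including kcnq1.S with 8 and 10 peaks. Keratin genes, which encode intermediate filaments of epithelia, were at 3 of 73, all in a single window of 2S with 11 and 14 midpoints. Solute carriers were at 12 of 491 (2.44%), cytochrome P450 genes at 2 of 69 and ribosomal protein genes at 3 of 148. By gene midpoint, no member was found in a peak-rich window among 56 hox genes, 59 sox and pou genes, 68 cadherin and protocadherin genes, 58 collagen genes, 91 crystallin genes and 31 serpin genes. The collagen gene col27a1.L touched 3 peak-rich windows, although its midpoint lay in another window. With lists of this size, a share of 3.09% corresponds to a few genes or none, and no list was tested.

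Long genes could span several peak-rich windows. There were 6 genes that touched 3 peak-rich windows, and none touched more. They were LOC108712410 on 3S, macrod2.S, cpq.L, the pseudogene LOC121395696 on 7L, col27a1.L and dennd1a.L. On cpq.L, a gene for a carboxypeptidase of 253118 bp on 6L, all 3 windows that it touched were peak-rich, with 28 peaks in replicate 1 and 40 in replicate 2. The gene macrod2.S, which the annotation lists on 5L despite its S suffix, is 1492323 bp long and touched 16 windows, of which 3 were peak-rich, with 84 and 171 peaks. In a further case, foxp1.L and foxp1.S, a forkhead repressor gene of over 600 kb on either subgenome, carried 45 and 70 peaks on L and 51 and 78 on S. The peaks along these genes were thus similar in number on both homeologs of foxp1.

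Finally, it was asked whether a gene in a peak-rich window has its homeolog in one too. Symbols that differ only in the L or S suffix gave 7755 pairs. The S gene lay in a peak-rich window in 315 pairs (4.06%) and the L gene in 165 (2.13%). Both did in 18 pairs, which is 5.71% of the S genes and 10.9% of the L genes. Counted over both subgenomes, the homeolog lay in a peak-rich window for 7.50% of the genes in peak-rich windows, against 2.95% of other genes. The partners' windows of genes in peak-rich windows had 5.44 midpoints in replicate 1 and 9.27 in replicate 2 on average, against 4.42 and 7.75 for the partners of other genes. Neighbouring genes share a window, so the pairs are not independent, and no test was made. Homeologs may also share their position relative to the chromosome end, and its part in these shares was not tested. Between 5 and 15 Mb from an end, 9.97% of all windows were peak-rich.

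The 18 shared pairs were spread over 7 chromosome pairs, with 8 of them on pair 4. The share of pair 4 among all 7755 pairs was not computed, so this count has no base to be read against. Some of the genes share a window, and the 18 gene pairs lay in 16 pairs of windows. Among the 8 on pair 4 were fgf19, which encodes a fibroblast growth factor, cd81, phf21a and foxp1. Another was spon1, which encodes an extracellular matrix protein of the floor plate. For fgf19 the windows had 10 and 18 midpoints on 4S and 11 and 17 on 4L. The gene fgf19.S carried 1 peak in replicate 1 and 2 in replicate 2, and fgf19.L carried 1 and 0. For cd81 the windows had 10 and 21 midpoints on 4S and 8 and 14 on 4L. For spon1 they had 10 and 15 on 4S and 10 and 19 on 4L. On other chromosomes the pairs included acvr2b, an activin receptor (11 and 14 on 6S, 11 and 15 on 6L), tacc3, a protein of the mitotic spindle (12 and 15 on 1S, 8 and 15 on 1L), and lpar2 with ubl5, which on 3S share a peak-rich window that also holds 38 tRNA genes.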

How the data were processed

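Per the labels and the study's methods, paired-end reads of 2 independent biological replicates were aligned to Xenopus laevis genome 10.1 with bowtie, and the authors called broad regions with HOMER 4.11 (histone style) in each replicate against its Input. Per the file headers, regions of 500 bp had to reach 12 tags in replicate 1 and 15 in replicate 2 and a 4-fold excess over Input. The headers also give a minimum distance of 1000 bp between peaks, but the edges of some neighbouring peaks lie closer together than that. The score in the deposited lists is 1 for every peak, so only positions were used.

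Genes, taken from RefSeq for the same assembly (44438 on the 18 chromosomes, with no strand), were assigned to windows by midpoint. Each measure was averaged over the peak-rich and the other windows of a chromosome and compared by an exact paired sign-flip permutation test over chromosomes, the units, since neighbouring windows are not independent. The 18 chromosomes form 9 homeologous pairs, whose partners keep many genes in common. They were nonetheless treated as independent units, and no test over pairs was made. The 7 p-values were adjusted by Benjamini-Hochberg at a threshold of 0.05, and the functions were tested on simulated lists. Named were the 10 windows with the highest sums and their genes, family members, and genes of the longest runs. Genes beside these windows, dkk1, ventx2.1.L and single homeolog pairs were chosen after their values were seen. The members and lists were chosen with earlier results of these data known. Alternatives were other window starts, thresholds, counts by overlap, the first part of each list, single replicates, and windows left out near ends or with tRNA arrays. A further alternative used chromosomes with 1 or more peak-rich window, where the main tests asked for 5 or more. It changed no test, because all 18 chromosomes met both limits. Python 3.11.15, numpy 2.4.6, pandas 2.3.3 and matplotlib 3.10.9 were used. Promoter CpG content, listed as a further measure, was not computed, since no promoter sequence was used here.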

Additional observations from a re-analysis of the deposited data

How the results depend on the processing

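The distance to the nearer chromosome end and the share of bases in protein-coding genes kept their direction in each of their 10 alternatives. Adjusted p stayed under 0.05 in each (exact sign-flip permutation test), with differences from -14.1 to -8.65 Mb and from -15.8 to -6.91 percentage points. In 1 alternative, all chromosomes with 1 or more peak-rich window were used. It repeated the main values, since no chromosome had been left out of them, and it is also counted among the 11 alternatives below. Settings that kept fewer windows could leave out chromosomes with fewer than 5 peak-rich windows, such as 3L with at least 10 and 17 midpoints. The differences of such settings can thus rest on fewer chromosomes than the main values. Protein-coding genes per window were lower in peak-rich windows in all 11 alternatives, but with the first 78.3% and 79.2% of the peaks in listing order the difference was -0.259 (exact permutation test, adjusted p = 0.0836, range over alternatives 1.78e-05 to 0.0836). The tRNA difference was 0.541 with windows from base 50000 (exact permutation test, adjusted p = 0.0493) and -0.00295 without windows of 10 or more tRNA genes, an alternative chosen after seeing the data. The lncRNA difference was 0.00152 with windows from base 50000 and 0.00890 in the first part of the lists, and that of pseudogenes -0.0160 with at least 10 and 17 midpoints. Leaving out replicate 1 or replicate 2, differences lay from -0.260 to -0.237 protein-coding genes, -7.76 to -6.91 points of bases, -0.0149 to -0.00265 lncRNA genes, 0.159 to 0.298 tRNA genes, 0.0571 to 0.0632 pseudogenes and -12.6 to -8.65 Mb, and the LOC share from 1.51 points without replicate 1 to 4.86 without replicate 2 (exact permutation test, adjusted p = 0.0309). The number of peak-rich windows was 210 with at least 10 and 17 midpoints, 2624 with at least 7 and 12, 295 in the first part of the lists, and from 1856 to 3898 with a single replicate. The share on S was 53.1% to 58.0% with a single replicate. The share next to another was 16.7% with at least 10 and 17, 36.6% with at least 7 and 12, and 29.96% to 39.4% with a single replicate. For homeologs that also lay in a peak-rich window, 7.50% in the data as reported, the value was 2.70% with at least 10 and 17, 13.9% with at least 7 and 12, 1.75% in the first part of the lists, and 11.9% to 16.6% with a single replicate. Fewer or more windows pass these rules by construction. The matching homeolog share of other genes was computed only for the data as reported (2.95%). Whether the homeolog shares of the alternatives lie above their own base therefore cannot be told. No paired analysis was possible because the captured libraries form 1 group and no Input peak lists were used here. The lists hold no tag counts, so depth limits which peaks were called, and with 2 replicates of 1 group a window just above the rule cannot be told from one just below it.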

Other observations

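Windows that met the threshold of a single replicate were also described. In 2776 windows only replicate 1 reached its threshold, with means of 8.90 midpoints in replicate 1 and 10.2 in replicate 2. In 734 windows only replicate 2 did, with means of 5.70 and 15.03. Their median distance from the nearer end was 28.6 Mb and 21.7 Mb, against 20.01 Mb for peak-rich windows and 40.9 Mb for windows that met neither threshold. Counted over all windows of a set, not averaged over chromosomes, protein-coding genes per window were 1.04 and 1.12 in these 2 sets. They were 0.949 in peak-rich windows and 1.30 where neither threshold was met. The share on S chromosomes was 51.0% and 57.5%, against 58.3% in peak-rich windows and 44.0% where neither was met. These values use the counts of the rule and carry no test.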
